A study of Homo sapiens with 36 samples.

Results

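The FOS and JUN family comprises 7 genes, FOS, FOSB, FOSL1, FOSL2, JUN, JUNB and JUND, which were found by symbol among the 60591 genes of the mRNA count table. All 7 had 1 row each and passed the low-count filter in both cell lines. Libraries were made from 2 human lines of colorectal cancer, Caco-2 and HT-29, which had been treated for 24 h with 300 µM cobalt chloride (CoCl2), with an oxyquinoline derivative (OD) at 5 µM, or with 0.5 µl of dimethyl sulfoxide (DMSO) per ml of medium as control. Both agents stabilise hypoxia-inducible factor by inhibiting the hydroxylases that target it for degradation, and the study used them as a chemical model of hypoxia. Each of the 6 groups had 3 libraries, described as biological replicates. Caco-2 had been differentiated for 21 days, a step not given for HT-29, so that line and culture state cannot be told apart. Per the labels OD and control contained DMSO and the CoCl2 stock was made in water, whereas the study's methods put DMSO in the CoCl2 medium as well, so any effect of the solvent cannot be told apart from that of CoCl2.

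The proteins of this family pair through leucine zippers to form the transcription factor AP-1. JUN proteins can pair with each other or with FOS proteins, while FOS proteins need a JUN partner to bind DNA. FOS, FOSB, JUN and JUNB are classic immediate-early genes, whose transcripts appear within minutes of growth factor, stress or MAP kinase signals and decay fast. FOSL1 and FOSL2 encode the FOS-related antigens FRA1 and FRA2, which lack a strong activation domain and usually accumulate later, and JUND is expressed in most resting cells. In the gut epithelium AP-1 is known for its part in proliferation, wound repair and tumour invasion.

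On GRCh38 (GENCODE v44), FOS lies at chr14:75278826-75282230, FOSB at chr19:45467995-45475179, FOSL2 at chr2:28392448-28417317 and JUNB at chr19:12791486-12793315, all on the plus strand. FOSL1 at chr11:65892049-65900573, JUN at chr1:58776845-58784048 and JUND at chr19:18279694-18281622 are on the minus strand. The canonical transcripts of the FOS genes have 4 exons each, and those of the JUN genes have 1. FOSB overlaps ERCC1, JUNB overlaps HOOK2 and FOSL2 overlaps FOSL2-AS1, each partner on the opposite strand, and FOSL2 also overlaps an unnamed non-coding RNA on its own strand. The library kit keeps strand, but the use of strand in counting was not stated, so reads in the overlaps cannot be assigned with certainty. ERCC1 had 275 to 365 raw counts in the Caco-2 control libraries, 190 to 265 in those given CoCl2 and 259 to 342 in those given OD, and in HT-29 it had 866 to 1481, 508 to 575 and 1237 to 1447. HOOK2 had 897 to 1161, 633 to 897 and 900 to 1054 in Caco-2, and 599 to 1012, 480 to 542 and 1025 to 1128 in HT-29. ERCC1, like FOSB, thus had more counts in HT-29 control than in Caco-2 control, and the part of the partners in the FOSB and JUNB counts was not tested. FOSL2-AS1 was not analysed here.

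The 250 bases before the start site were taken from RefSeq (GRCh38.p14) for 6 members, all but FOSL1, and both strands were searched for 8 motifs. The letters TGACG, the core of the cAMP response element, stood in 6 of the 6 windows and in 21.2% of 35116 windows of the same kind. The full element TGACGTCA was found in JUND alone among the members (1.65% of all windows), where it overlaps 2 matches to its core, and TGACATCA, the AP-1 site type described for JUN, in JUN alone (2.38%). TATAAA stood in FOS, FOSB and JUNB (10.7%). The AP-1 consensus TGANTCA (6.57%) and the CArG box (1.16%) had no match in the members' windows, and bases further upstream were not searched. ACGTG or GCGTG, the core of hypoxia response elements, matched in 4 of 6 (43.2%), and CCAAT in 3 of 6 (32%). The FOSL2 window lies with all 250 bases inside the gene as GENCODE v44 annotates it, so it does not precede that start. Without it, TGACG stood in 5 of 5 windows and the hypoxia response core in 3 of 5. These are letter matches in a short window and not shown binding sites. The windows of FOS and FOSB, the members that fell with OD in HT-29, and of JUN and JUND, which rose with CoCl2 in both lines, are given 5′ to 3′ on the strand of the gene. Capitals mark matches to TGACG, TGACGTCA, TGACATCA and TATAAA on either strand.
FOS (chr14:75278578-75278827, plus strand): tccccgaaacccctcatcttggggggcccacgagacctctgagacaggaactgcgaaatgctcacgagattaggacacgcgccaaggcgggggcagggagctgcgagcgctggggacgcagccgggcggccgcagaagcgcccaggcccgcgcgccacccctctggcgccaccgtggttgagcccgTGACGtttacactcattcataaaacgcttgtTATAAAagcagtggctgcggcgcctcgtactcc
FOSB (chr19:45467746-45467995, plus strand): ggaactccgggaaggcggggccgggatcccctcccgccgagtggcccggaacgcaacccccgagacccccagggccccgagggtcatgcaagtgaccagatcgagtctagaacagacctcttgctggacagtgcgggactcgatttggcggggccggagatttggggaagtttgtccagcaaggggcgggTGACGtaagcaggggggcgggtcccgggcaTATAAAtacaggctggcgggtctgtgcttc
JUN (chr1:58784048-58784297, minus strand): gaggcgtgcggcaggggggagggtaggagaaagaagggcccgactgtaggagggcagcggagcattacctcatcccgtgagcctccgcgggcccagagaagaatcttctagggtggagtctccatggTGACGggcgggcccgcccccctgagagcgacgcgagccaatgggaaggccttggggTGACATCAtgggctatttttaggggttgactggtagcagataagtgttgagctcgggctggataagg
JUND (chr19:18281623-18281872, minus strand): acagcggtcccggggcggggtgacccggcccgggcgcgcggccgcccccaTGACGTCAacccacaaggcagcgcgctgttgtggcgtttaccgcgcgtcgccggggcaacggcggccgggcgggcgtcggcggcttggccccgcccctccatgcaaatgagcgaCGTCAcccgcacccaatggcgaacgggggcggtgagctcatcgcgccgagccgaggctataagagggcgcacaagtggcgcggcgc
In FOS and FOSB the TGACG core and the TATAAA letters have nearly the same spacing. The core begins at base -64 in FOS and -60 in FOSB, and TATAAA at -33 and -30, counting the base before the start site as -1. In JUN the TGACATCA letters begin at -67, and in JUND the full element begins at -200.

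Total counts per library ran from 12925719 to 22332639. Levels are given as CPM, counts relative to the library total, after scaling the libraries of a line to each other with the TMM method. The TMM factors moved with treatment, with ranges of 1.11 to 1.13 (control), 0.883 to 0.906 (CoCl2) and 0.971 to 1.02 (OD) in Caco-2, and of 1.19 to 1.20, 0.765 to 0.774 and 1.07 to 1.10 in HT-29, so the choice of scaling bears on small differences. All 7 epithelial markers exceeded 1 CPM in both lines. In Caco-2, 2 of them were called higher with CoCl2, with KRT18 the highest (log2 1.35), and KRT20 was called higher with OD (1.49). None was called lower in Caco-2, where VIL1 stood at 796 ± 24.2 CPM in control and 443 ± 20.0 under CoCl2. In HT-29, VIL1 stood at 205 ± 3.00 CPM in control, 33.6 ± 2.96 under CoCl2 and 92.5 ± 3.84 under OD and was called lower with both, CDX2 was called lower with CoCl2 (log2 -1.46), and KRT20 was called higher with both (1.23 and 1.39). The 5 enterocyte markers together had 2911 to 3314 CPM in Caco-2 control, 3804 to 4507 under CoCl2 and 3014 to 3324 under OD, mostly from APOA1 (2545 ± 163 CPM in control and 3721 ± 405 with CoCl2). The median of the 5 with CoCl2 was -0.47 on the log2 scale, with SI called lower (289 ± 38.1 and 115 ± 18.8 CPM) and APOA4 called higher (log2 2.22). In HT-29 3 of them exceeded 1 CPM and they summed to 30.1 to 33.0, 15.1 to 18.4 and 18.1 to 20.6 CPM. No blood cell marker exceeded 1 CPM, and fibroblast markers summed to at most 35.4 CPM in Caco-2 and 6.23 CPM in HT-29. Of 4 endothelial markers, PECAM1 and VWF exceeded 1 CPM in Caco-2 and PECAM1 did in HT-29, where CDH5 and KDR were at 0. PECAM1 stood at 8.84 ± 2.38 CPM in Caco-2 control and 2.03 ± 0.405 under CoCl2. In HT-29 it stood at 1.68 ± 0.459 and 0.401 ± 0.153 CPM. PECAM1 was called lower with CoCl2 in both lines, and VWF with both agents in Caco-2. VWF had 13 to 17 counts in the Caco-2 control libraries, 1 to 9 with CoCl2 and 3 to 7 with OD. VWF passed the low-count filter through the control libraries, so its fall was in part fixed in advance. The part of the marker changes in the family changes was not tested. In bulk RNA, fewer cells with a transcript and less transcript per cell cannot be told apart.

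In untreated cells the lines differed in which member led. Comparing levels between genes per length, as RPKM (CPM per kilobase of gene length), FOSL2 was the highest member in Caco-2 control at 35.2 ± 0.908 RPKM (SD, n = 3), followed by JUND at 17.3 ± 3.16. JUNB and JUN followed at 3.70 ± 0.410 and 3.60 ± 0.140 with overlapping ranges, and FOS, FOSL1 and FOSB were at 1.38 ± 0.341, 0.476 ± 0.120 and 0.0492 ± 0.0646. FOSL2 therefore made up 57.1% ± 2.39 of the family RPKM and JUND 28.0% ± 3.74. In HT-29 control JUN led at 51.6 ± 0.714 RPKM. JUNB at 42.2 ± 4.21 and JUND at 36.7 ± 2.83 overlapped, as did FOS at 17.8 ± 2.73 and FOSL2 at 15.8 ± 0.569. FOSL1 stood at 8.28 ± 1.22 and FOSB at 1.48 ± 0.308.

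Between the controls of the lines, 6 members were called higher in HT-29 and 1 lower, against 21.6% and 24.2% of the 17921 genes tested. The 6 include FOSB, with 0 to 10 counts per Caco-2 control library. It passed the low-count filter through other groups, so its difference was in part fixed in advance. A gene was called at an FDR under 0.05 with an absolute log2 fold change over 1 in the edgeR quasi-likelihood test. The log2 differences (HT-29 less Caco-2) were 5.04 ± 0.351 (SE) for FOSB, 4.23 ± 0.193 for FOSL1, 3.93 ± 0.0972 for JUN, 3.78 ± 0.124 for FOS, 3.61 ± 0.110 for JUNB and 1.17 ± 0.103 for JUND. FOSL2 was lower, at -1.06 ± 0.0628. The highest FDR of the 7 was 2.53e-12, for JUND. The FOSB value was 4.40 without Caco-2 control replicate 1 and 6.95 without replicate 2, which held 10 of the 12 FOSB counts of that group.

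With CoCl2 in Caco-2, 6 of the 7 members rose past the call, where 9.13% of the 16034 genes tested were called higher, and no member fell, where 14.2% did. The 6 include FOSB, which passed the low-count filter through the treated libraries, so its rise was in part fixed in advance. The median log2 fold change of the members was 3.17, and that of all genes tested was -0.03. FOSL1, FOS and FOSB had the highest values, JUN and JUNB came next, and JUND and FOSL2 had the lowest. The plot of levels by library shows the groups.

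**Figure D1:**
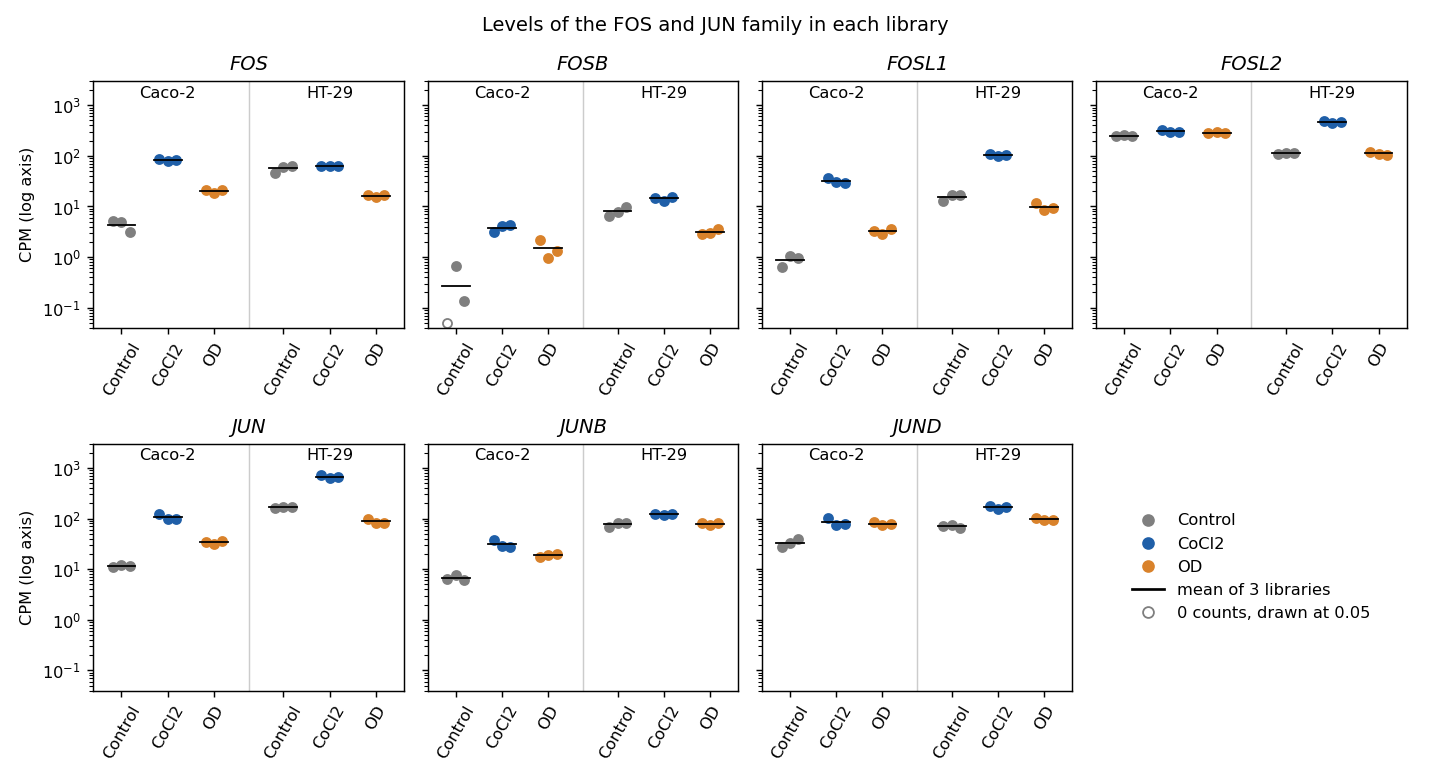
CPM of each family member on a log axis in the 18 libraries, by line and treatment, with points for libraries and a bar for the mean of 3. FOS in Caco-2 stood at 3.12 to 5.06 CPM in control and 80.4 to 86.4 with CoCl2, whereas in HT-29 the control and CoCl2 libraries overlapped, at 46.7 to 63.2 and 61.9 to 63.6; the open point is a library with 0 FOSB counts drawn at 0.05.

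FOS, the prototype immediate-early gene, stood at 5.06, 4.90 and 3.12 CPM in the Caco-2 control libraries, at 86.4, 80.4 and 80.9 with CoCl2, and at 21.3, 18.5 and 21.0 with OD. The 3 groups did not overlap, and CoCl2 libraries were the highest. The log2 fold change was 4.23 ± 0.128 (SE, FDR 9.92e-19, edgeR) with CoCl2 and 2.20 ± 0.137 (FDR 2.76e-12, edgeR) with OD. FOSB, its close relative, had 0, 10 and 2 counts in control, 38, 56 and 78 with CoCl2, and 33, 16 and 19 with OD. These counts were the lowest of the family. FOSB passed the low-count filter in Caco-2 through the treated libraries, so a difference from control was in part fixed in advance. Its calls and FDRs against control describe these counts and support nothing further. The FOSB log2 fold change was 3.85 ± 0.489 with CoCl2 (FDR 2.45e-07, edgeR) and 2.49 ± 0.559 with OD (FDR 0.000675, edgeR), and without control replicate 2 these were 5.75 and 4.39. Leaving out control replicate 1, the library with 0 counts, gave 3.21 and 1.85.

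FOSL1, which encodes FRA1, had 0.640, 1.07 and 0.969 CPM in Caco-2 control, 36.1, 30.5 and 28.7 with CoCl2, and 3.30, 2.88 and 3.60 with OD. It went from the edge of detection, at 11 to 16 counts per control library, to 420 to 531 counts with CoCl2. Its log2 fold change of 5.15 ± 0.188 with CoCl2 (35.6-fold, FDR 2.87e-17, edgeR) ranked the 13th highest of all genes tested, and that with OD was 1.87 ± 0.247 (FDR 1.00e-06, edgeR). FOSL2, which encodes FRA2, had 244, 257 and 251 CPM in control, 322, 299 and 294 with CoCl2, and 280, 294 and 288 with OD. All treated libraries were above all controls, yet the log2 fold changes were small, at 0.28 ± 0.0691 (FDR 0.000979, edgeR) and 0.20 ± 0.0691 (FDR 0.0208, edgeR). Without TMM the CoCl2 value for FOSL2 was -0.04, so its direction depended on the scaling. The OD value for FOSL2 ran from 0.04 to 0.23 over the alternatives run.

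JUN, which can form AP-1 as a dimer with itself, had 11.2, 12.1 and 11.6 CPM in Caco-2 control, 121, 97.4 and 97.0 with CoCl2, and 34.8, 31.6 and 36.3 with OD. The log2 fold change was 3.17 ± 0.106 with CoCl2 (9.0-fold, FDR 5.56e-18, edgeR) and 1.55 ± 0.109 with OD (FDR 2.48e-11, edgeR). JUNB, a weaker activator that can restrain JUN, had 6.46, 7.58 and 6.16 CPM in control, 37.4, 28.8 and 27.6 with CoCl2, and 17.1, 19.5 and 20.0 with OD. For both genes the 3 groups were fully separate, with OD between control and CoCl2. The JUNB log2 fold changes were 2.21 ± 0.137 (FDR 8.48e-13, edgeR) and 1.49 ± 0.140 (FDR 4.82e-09, edgeR). JUND, often described as opposing growth, had 27.8, 32.2 and 39.8 CPM in control, 102, 74.0 and 78.9 with CoCl2, and 85.4, 74.9 and 76.9 with OD. Here the CoCl2 and OD libraries overlapped and both lay above control, with log2 fold changes of 1.35 ± 0.117 (FDR 3.91e-10, edgeR) and 1.25 ± 0.117 (FDR 3.95e-09, edgeR).

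With OD in Caco-2 the same count, 6 of 7, was called higher, where 4.43% of the genes tested were (7.27% were called lower), and FOSL2 was again the member below the call. FOSB, again among the 6, carries the same limit from the low-count filter. The median over the members was 1.55, and -0.02 over all genes. These comparisons with CoCl2 and with OD share their control libraries. Compared directly, at unequal doses of 300 µM and 5 µM, CoCl2 exceeded OD past the call for FOS, FOSB, FOSL1 and JUN, 4 of 7 members, where 5.21% of genes were called higher and 6.44% lower. The log2 differences (CoCl2 less OD) were 3.28 ± 0.153 for FOSL1, 2.03 ± 0.106 for FOS, 1.62 ± 0.0946 for JUN and 1.36 ± 0.361 for FOSB (FDR 0.00301 for FOSB, edgeR, the highest of the 4). JUNB differed by 0.72 ± 0.122, under the fold required. The 95% intervals of the difference ran from -0.06 to 0.23 for FOSL2 and from -0.13 to 0.33 for JUND.

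In HT-29 the pattern of the family was different, and it differed between the agents. CoCl2 raised FOSL1, FOSL2, JUN and JUND past the call, 4 of 7 members, where 17.4% of the 15812 genes tested were called higher and 23.9% lower. OD raised none and lowered FOS and FOSB, 2 of 7, where 7.57% of genes were called lower and 9.5% higher. Over the members the median log2 fold change was 1.25 for CoCl2 and -0.68 for OD, and over all genes -0.03 and 0.01.

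**Figure D2:**
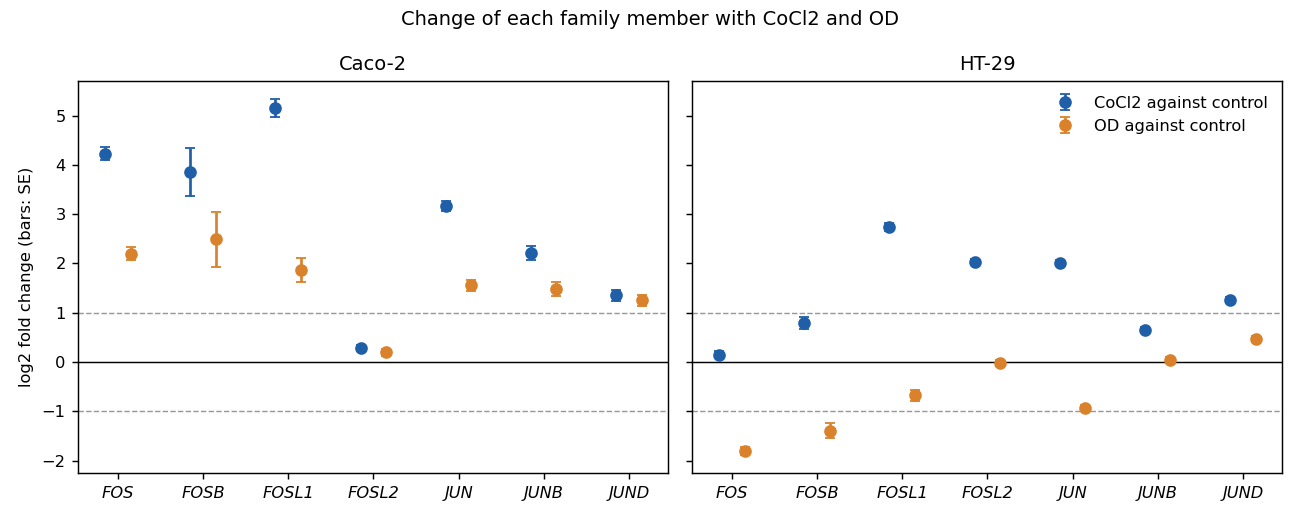
log2 fold change of each member against control in Caco-2 (left) and HT-29 (right), with CoCl2 in blue and OD in orange, bars for the SE and dashed lines at the fold required for a call. In Caco-2 every member except FOSL2 lay above 1 with both agents, whereas in HT-29 FOS moved from 0.15 with CoCl2 to -1.81 with OD.

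FOS had 46.7, 59.7 and 63.2 CPM in HT-29 control, 63.6, 63.6 and 61.9 with CoCl2, and 16.7, 15.4 and 16.7 with OD. The CoCl2 libraries lay within the upper end of the control range or just above it, and the OD libraries lay far below. The log2 fold change was 0.15 ± 0.0730 with CoCl2 (95% interval -0.00 to 0.30, FDR 0.0664, edgeR) and -1.81 ± 0.0834 with OD (FDR 2.19e-16, edgeR). Without TMM, the CoCl2 value was -0.49 (FDR 6.07e-07, edgeR), so no direction is given for FOS with CoCl2. FOSB had 6.58, 7.76 and 9.91 CPM in control, 14.9, 12.9 and 15.4 with CoCl2, and 2.90, 3.03 and 3.51 with OD. The groups did not overlap, and the log2 fold changes were 0.79 ± 0.123 (FDR 1.45e-06, edgeR) and -1.40 ± 0.152 (FDR 7.09e-09, edgeR). Without TMM the CoCl2 value for FOSB was 0.16 (FDR 0.220, edgeR).

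FOSL1 had 12.9, 17.0 and 16.7 CPM in HT-29 control, 109, 101 and 103 with CoCl2, and 11.6, 8.32 and 9.37 with OD. As in Caco-2 it had the highest log2 fold change of the family with CoCl2, 2.73 ± 0.0807 (6.65-fold, FDR 2.58e-21, edgeR), while with OD it lay below control at -0.68 ± 0.105 (FDR 2.61e-06, edgeR), under the fold required. FOSL2 had 108, 114 and 116 CPM in control, 478, 450 and 461 with CoCl2, and 121, 107 and 106 with OD. It rose 4.10-fold with CoCl2 (log2 2.04 ± 0.0527, FDR 1.49e-22, edgeR), and the OD libraries overlapped control (-0.02 ± 0.0531, 95% interval -0.13 to 0.09, FDR 0.721, edgeR).

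JUN had 164, 169 and 168 CPM in HT-29 control, 721, 645 and 652 with CoCl2, and 99.1, 82.9 and 81.8 with OD. CoCl2 and OD moved it in opposite directions, by 2.01 ± 0.0591 (FDR 2.35e-21, edgeR) and -0.93 ± 0.0607 (FDR 3.38e-13, edgeR), the latter just short of the fold required. Without OD replicate 1 the OD value was -1.02, and without TMM it was -1.06, both past the call. JUNB had 68.0, 81.0 and 81.5 CPM in control, 124, 118 and 124 with CoCl2, and 82.2, 75.8 and 79.8 with OD. CoCl2 libraries were the highest and OD overlapped control, with log2 fold changes of 0.66 ± 0.0589 (FDR 7.29e-11, edgeR) and 0.04 ± 0.0591 (95% interval -0.08 to 0.16, FDR 0.566, edgeR). Without TMM the CoCl2 value for JUNB was 0.03.

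JUND had 72.6, 74.5 and 64.3 CPM in HT-29 control, 175, 157 and 170 with CoCl2, and 105, 92.5 and 94.6 with OD. Every treated library lay above every control library, as was so in Caco-2. In HT-29 its log2 fold changes were 1.25 ± 0.0606 (FDR 1.43e-16, edgeR) and 0.47 ± 0.0608 (FDR 1.51e-07, edgeR), and without TMM the CoCl2 value was 0.62, under the fold required. At the unequal doses, CoCl2 exceeded OD in HT-29 past the call for 5 of 7 members, where 10.8% of genes were called higher and 19.2% lower. The log2 differences (CoCl2 less OD) were 3.41 ± 0.0877 for FOSL1, 2.93 ± 0.0621 for JUN, 2.19 ± 0.147 for FOSB, 2.06 ± 0.0528 for FOSL2 and 1.95 ± 0.0853 for FOS. JUND and JUNB differed by 0.78 ± 0.0593 and 0.62 ± 0.0590.

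Whether the lines responded differently was tested as an interaction in 1 fit over the 18 libraries. For CoCl2 the response in HT-29 was smaller for 5 members and larger for 1, where 13.8% and 7.79% of the 17921 genes tested were called lower and higher. The log2 difference in response (HT-29 less Caco-2) was -4.19 ± 0.156 for FOS, -3.17 ± 0.483 for FOSB, -2.52 ± 0.243 for FOSL1, -1.65 ± 0.146 for JUNB and -1.27 ± 0.125 for JUN, and 1.65 ± 0.0877 for FOSL2. For JUND the 95% interval of the difference ran from -0.49 to 0.08 (FDR 0.231, edgeR). For OD the response in HT-29 was lower for 5 members, where 6.24% of genes were called lower and 8.96% higher, with -4.02 ± 0.169 for FOS, -3.90 ± 0.538 for FOSB, -2.56 ± 0.291 for FOSL1, -2.49 ± 0.130 for JUN and -1.46 ± 0.150 for JUNB. The highest FDR among the called differences was 1.26e-06, for FOSB with CoCl2 (edgeR). FOSB, among the 5 with each agent, had 0 to 10 counts per Caco-2 control library and passed the low-count filter through other groups. Its differences were thus in part fixed in advance, and its calls support nothing further. The FOSB differences were -2.52 (CoCl2) and -3.25 (OD) without Caco-2 control replicate 1, and -5.07 and -5.80 without replicate 2. The control levels of these 5 members were also higher in HT-29, as given above, and the part of the starting level in the difference was not tested.

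**Figure D3:**
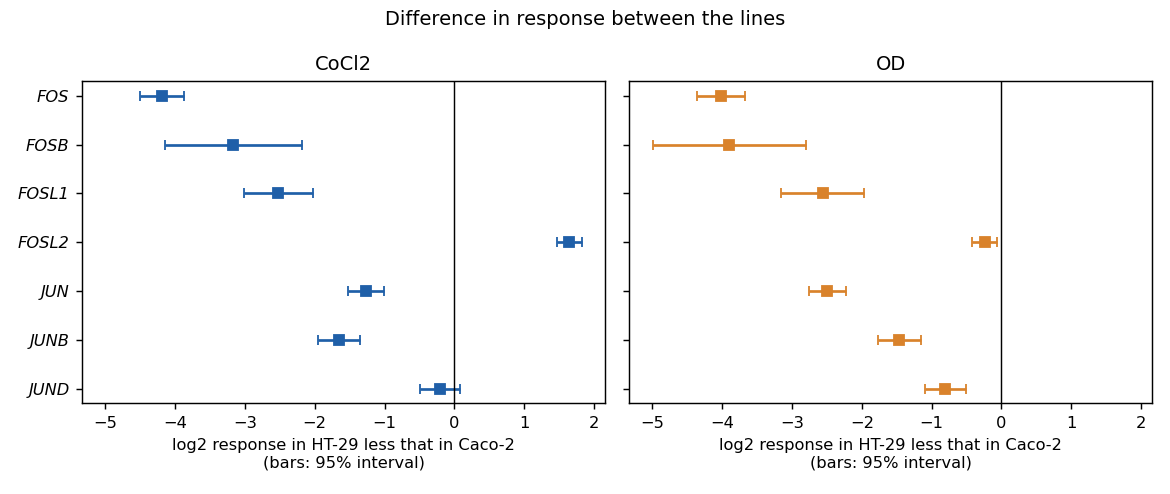
Difference in log2 response between the lines (HT-29 less Caco-2) for each member with CoCl2 (left) and OD (right), as squares with 95% intervals. With CoCl2, FOS lay at -4.19 and FOSL2 on the other side of 0 at 1.65, and the interval of JUND included 0; with OD all 7 values lay below 0.

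The makeup of the family within a library does not depend on how libraries are scaled against each other, but it depends on the gene lengths used. These were 3169 bases for FOS and 5479 for FOSB, where the canonical transcripts have 2104 and 3775. For JUN they were 3240 and 3257. The order of members by RPKM, the shares and the ratio of JUN to FOS members were not computed with canonical lengths. In Caco-2, FOSL2 fell from 57.1% ± 2.39 of the family RPKM in control to 23.8% ± 1.40 with CoCl2 and 36.4% ± 1.64 with OD. FOS took 2.25% ± 0.645, 14.5% ± 0.956 and 5.76% ± 0.315, and FOSL1 0.766% ± 0.161, 9.38% ± 0.298 and 1.56% ± 0.150. JUND led with both agents, at 24.4% ± 1.62 and 37.1% ± 2.00, although in RPKM its range overlapped that of FOSL2 in both groups. In HT-29 the share of FOS was 10.2% ± 1.14 in control, and it was lower both with CoCl2 (3.94% ± 0.177) and with OD (3.48% ± 0.167). JUN took 29.7% ± 1.12 in control, 41.1% ± 0.895 with CoCl2 and 18.3% ± 0.845 with OD, and JUND led with OD at 34.3% ± 0.0686.

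**Figure D4:**
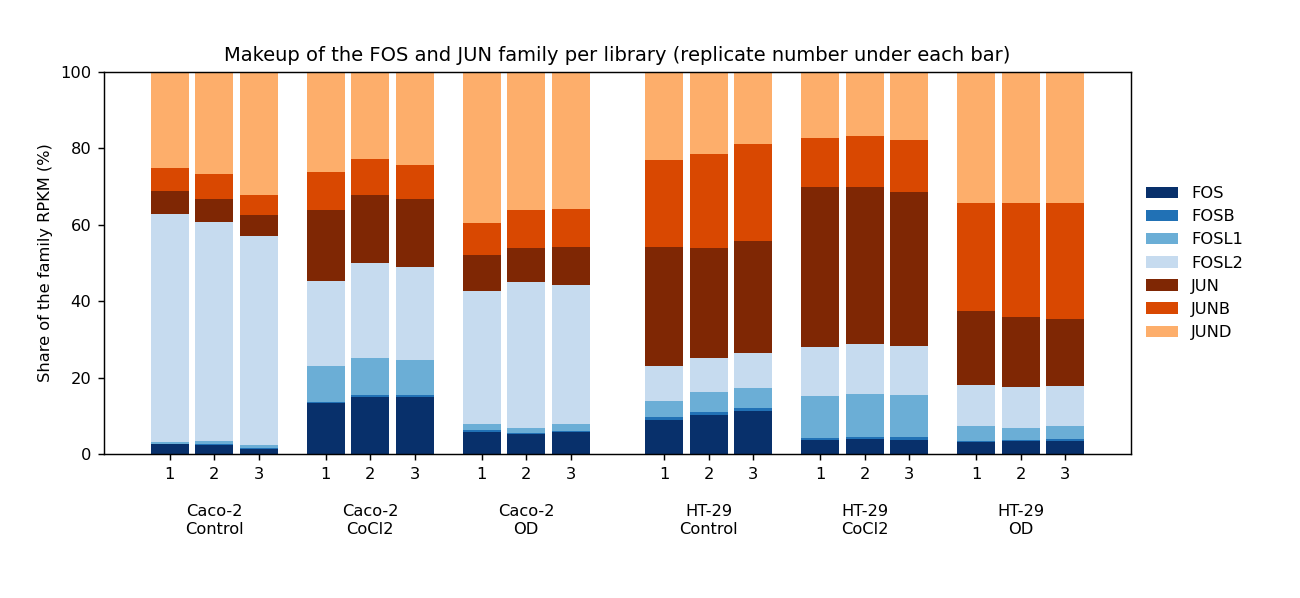
Share of each member in the summed RPKM of the family, in percent, with 1 stacked bar per library and the 3 replicates of a group side by side. FOSL2 took 54.6% to 59.4% in the Caco-2 control libraries and at most 13% in any HT-29 library, and JUN took 40.2% to 42.0% in HT-29 with CoCl2.

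Summed over the 7 members, the family stood at 61.7 ± 3.52 RPKM in Caco-2 control, 180 ± 19.8 under CoCl2 and 111 ± 2.34 under OD. In HT-29 the sums were 174 ± 8.82, 505 ± 22.6 and 148 ± 10.0. The ratio of summed JUN to summed FOS members, which are the potential partners in a dimer, was 0.664 ± 0.0826 in Caco-2 control, 1.08 ± 0.107 under CoCl2 and 1.28 ± 0.0625 under OD. In HT-29 the ratio was 3.03 ± 0.271 in control, 2.52 ± 0.0488 with CoCl2 and 4.58 ± 0.0692 with OD. The groups of a line did not overlap in the sum or in the ratio, and each of the 12 two-sided exact permutation tests gave p = 0.1, the smallest that 3 against 3 libraries allow.

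Across the 9 libraries of Caco-2, the log2 CPM of JUN followed that of FOS with a Pearson correlation of 0.992, and that of FOSL1 with 0.985. In the 9 HT-29 libraries the values were 0.787 for JUN with FOS, 0.989 for JUN with FOSL1 and 0.214 for FOS with JUND. These points share their libraries and fall into 3 treatment groups, so the values describe the shared pattern over groups. Among tested genes with a mean of at least 100 counts, those most like JUN in Caco-2 were CITED2, BAG3 and ABHD4 (0.998, 0.998 and 0.997), and those most like FOS were ANKZF1, CCL20 and UNC119 (0.998, 0.998 and 0.997). In HT-29, RAB35, RBM28 and KCTD10 were most like JUN (0.999, 0.999 and 0.998), CUL4A, SUCLG1 and DUSP12 most like FOS (0.996, 0.995 and 0.992), and BLCAP, PCYT1A and PDK1 most like FOSL2 (all 0.999 or above).

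The counts of listed genes in what follows stand beside the shares of all tested genes called higher and lower, which were in Caco-2 9.13% higher and 14.2% lower for CoCl2, against 4.43% higher and 7.27% lower for OD. The HT-29 shares were 17.4% higher and 23.9% lower for CoCl2, against 9.5% higher and 7.57% lower for OD. Of the factors that pair with the family, 12 were listed, and 10 of them passed the filter for Caco-2 and 9 for HT-29. In Caco-2, 3 rose and 2 fell with CoCl2, and 3 rose and 1 fell with OD. MAFF, a small MAF protein without an activation domain, stood at 5.42 ± 0.957 CPM (SD) in Caco-2 control, at 85.6 ± 4.66 with CoCl2 and at 30.6 ± 6.04 with OD (log2 fold changes 3.97 and 2.49). In HT-29, 3 rose and 2 fell with CoCl2 and 1 rose with OD. Of these counts, those of the fallers in both lines and of the gene that rose with OD in HT-29 lie near the shares of all genes. MAFG, another small MAF protein, had the highest value in HT-29 with both agents (log2 2.98 and 1.30). JDP2, a dimer partner that represses AP-1, fell with CoCl2 in both lines, by 1.01 and 1.58 on the log2 scale. The list medians ran from 0.21 to 0.51 over the 4 comparisons.

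Of 15 kinases of the MAP kinase cascades, namely MAP kinases, their activating kinases and the upstream MAP3K1 and MAP3K5, 2 rose and 1 fell with CoCl2 in Caco-2, 1 and 1 did so with OD, 4 and 2 with CoCl2 in HT-29, and 0 and 1 with OD. These counts lie near the shares of all genes. MAP2K1, the kinase that activates ERK, rose in the first 3 of these comparisons, by 1.16, 1.03 and 2.10 on the log2 scale. MAP2K6, which activates p38, fell in all 4, with values of -1.08, -1.10, -2.22 and -1.51, and MAP3K5 was the other that fell with CoCl2 in HT-29 (-1.58). Of 9 factors that bind the promoters of the family, 1 rose with CoCl2 in Caco-2 and 2 in HT-29, none fell, and none was called with OD; the numbers that rose lie near the shares of all genes. MEF2D had the highest value in both lines with CoCl2, at 1.13 and 1.47.

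Among 12 genes for feedback and turnover, all tested, in Caco-2 5 rose under each agent and none fell. In HT-29, 4 rose and 3 fell with CoCl2, and 1 rose and 1 fell with OD. The HT-29 counts lie nearer to the shares of all genes than the Caco-2 counts of risers. DUSP1, a phosphatase that shuts off MAP kinases, rose in Caco-2, where it had 9.44 ± 1.04 CPM in control and 72.3 ± 5.20 under CoCl2. DUSP6, the ERK phosphatase, stood at 126 ± 10.1 CPM in HT-29 control and fell with both agents, to 21.4 ± 0.566 (CoCl2) and 34.2 ± 3.49 (OD), whereas in Caco-2 it rose by 2.42 and 1.14 on the log2 scale. DUSP5, also an ERK phosphatase, rose in all 4 comparisons, with log2 fold changes of 2.77, 2.72, 2.49 and 2.26.

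Of 16 other immediate-early genes, 13 were tested in Caco-2, where 7 rose with CoCl2 and 4 with OD and none fell, and 14 in HT-29, where 1 rose and 5 fell with each agent. The list medians were 1.17, 0.39, -0.67 and -0.57. The 5 that fell in HT-29 include EGR2, at 31 to 60 counts in control, 1 to 3 with CoCl2 and 2 to 3 with OD. EGR2 passed the low-count filter there through the control libraries, so its fall was in part fixed in advance. NR4A1, an orphan nuclear receptor, rose in all 4 comparisons, by 1.96, 1.94, 1.04 and 1.37 on the log2 scale. EGR1, which is switched on by many of the same signals as FOS, had 148 ± 21.2 CPM in HT-29 control, 11.4 ± 1.17 under CoCl2 and 5.10 ± 0.457 under OD. The changes there were -3.70 ± 0.0944 and -4.87 ± 0.102 on the log2 scale (FDR 1.07e-22 and 2.55e-23, edgeR). In Caco-2, EGR1 had 8.16 ± 0.917 CPM in control and 23.6 ± 0.738 under CoCl2, where it was called higher (log2 1.54, FDR 2.05e-10, edgeR), and 5.21 ± 0.609 under OD, where it was not called (log2 -0.64 ± 0.148).

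Of 18 listed AP-1 target genes, 10 were tested in Caco-2, of which 8 rose with CoCl2 and 5 with OD and none fell. In HT-29, 16 were tested, of which 9 rose and 2 fell with CoCl2, and 11 rose and 1 fell with OD. Of those that rose, 4 with CoCl2 in HT-29 (MMP1, MMP13, PLAU and SPP1), 6 with OD (these with MMP10 and IL11) and MMP13 with CoCl2 in Caco-2 had at most 10 counts in each control library. Genes that passed the filter through the treated libraries had to differ, so these counts describe the list and support nothing about it. The other risers numbered 7 (CoCl2) and 5 (OD) for Caco-2 cells, and 5 under either agent for HT-29. MMP13, a collagenase, had 375 to 552 counts in CoCl2-treated HT-29 and 94 to 113 under OD, against 0 to 7 in control. PLAU, the urokinase gene, had 2 to 7 counts in HT-29 control, 18 to 25 with CoCl2 and 89 to 134 with OD. HBEGF, an EGF receptor ligand, rose in Caco-2 by 1.97 and 1.13 on the log2 scale, and in HT-29 it fell under both agents, with values of -1.85 and -2.40.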

How the data were processed

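Of the 36 libraries of the series, the 18 mRNA libraries (6 groups of 3, from the sample labels) were used, and the miRNA tables were not used here. The authors deposited a table of raw counts for each gene and a log2 table, which recomputation showed to be log2(RPKM + 1) on TMM-scaled library sizes within a line. Per the labels, mRNA was sequenced as single-end reads of 75 nucleotides. The submitters' processing notes list cutadapt 2.10 and STAR 2.7.5b and the build GRCh38.p13. The counting tool and its use of strand are not given in the sources used here.

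Counts were tested with edgeR 4.0.16 in R 4.3.3 (TMM, filterByExpr, two-sided quasi-likelihood F test, Benjamini-Hochberg FDR over all genes tested), with 1 fit per line over 9 libraries and 1 over all 18 for differences between the lines. Called means an FDR under 0.05 and an absolute log2 fold change over 1. CPM are given as mean ± SD over 3 libraries. RPKM used the gene lengths implied by the deposited log2 values. Log2 fold changes are ± SE, and the median SE over all genes was 0.0855 to 0.127 in the treatment comparisons with control. Spread between replicates exceeded counting error in every group (chi-square per degree of freedom 1.96 to 12.6). Members and lists were chosen with earlier results of these data known. All 7 members are named, and from each list genes with the highest or lowest called change in a comparison; a gene so named may be given in other comparisons too. For JUN, FOS and FOSL2, genes most like them across libraries are named. The steps were tested on simulated data. Alternatives were DESeq2 1.42.0, library size only, RLE, no filter, a replicate block, limma-trend (limma 3.58.1) on the deposited log2 values, and leaving out each library.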

Additional observations from a re-analysis of the deposited data

Results flagged for a closer look

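For 6 members with CoCl2 and 5 with OD, the response differed between the lines by the interaction test (edgeR, FDR at most 1.26e-06). As log2 response in HT-29 less that in Caco-2, the CoCl2 values were -4.19 for FOS, -3.17 for FOSB, -2.52 for FOSL1, 1.65 for FOSL2, -1.27 for JUN and -1.65 for JUNB. The OD values were -4.02 for FOS, -3.90 for FOSB, -2.56 for FOSL1, -2.49 for JUN and -1.46 for JUNB. FOSL2 with CoCl2 was the one member with a larger response in HT-29. FOSB, counted with both agents, carries the limit from the low-count filter given above. Of all genes tested, 13.8% were called lower and 7.79% higher with CoCl2, and 6.24% and 8.96% with OD.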

How the results depend on the processing

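The number of members called stayed within 1.5 times under every alternative run but 1: for OD in HT-29 limma-trend on the deposited log2 values called 1 in place of 2, since FOSB stood at -0.66 there, and FOSL1 with OD in Caco-2 stood at 0.88. Leaving out each library gave 2 to 3 members for OD in HT-29 and the same number in every other comparison. Scaling by library size only lowered the median of all genes to -0.35, -0.18, -0.66 and -0.13 (CoCl2 and OD in Caco-2, then in HT-29). With it the direction turned for FOSL2 with CoCl2 in Caco-2 (-0.038), FOS with CoCl2 in HT-29 (-0.49), JUNB with OD in HT-29 (-0.097), and FOSL2 (-0.081) and JUND (-0.067) for CoCl2 less OD in Caco-2. It also turned with a library left out for FOSL2 with OD in HT-29 (-0.088 to 0.016, above 0 without OD replicate 2 or 3), JUNB there (-0.0385 to 0.084, below 0 without control replicate 1) and JUND, CoCl2 less OD in Caco-2 (-0.0474 to 0.19, below 0 without CoCl2 replicate 1). None of these values passed the call in any setting run. DESeq2, RLE scaling, no low-count filter and the block changed no member's call. FOSL2 with OD in Caco-2 had an FDR of up to 0.0899 (edgeR) with a library left out. Over all alternatives its log2 fold change ran from 0.0435 to 0.226, and the highest FDR of these tests (edgeR, DESeq2 and limma-trend) was 0.604.

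Over all genes, limma-trend called 1098, 381, 2520 and 744 genes against control and 341 and 1455 for CoCl2 less OD, where the counts gave 3747, 1876, 6524, 2699, 1868 and 4734. The share of calls that were higher was 39.07%, 37.9%, 42.14%, 55.65%, 44.7% and 35.95% in these 6 comparisons, 19.7%, 23.32%, 17.16%, 43.42%, 28.32% and 12.92% by library size only, and 53.19%, 64.83%, 53.45%, 69.22%, 59.24% and 52.85% with limma-trend. For the CoCl2 interaction it was 36.03% and, by library size only, 23.24%. The log2(RPKM + 1) scale shrinks the changes of low genes, and the test and the genes tested differed too (13153 in place of 16034 in Caco-2). The part of each in the numbers called was not tested. Limma-trend was not run between the lines, whose tables were normalised separately, nor for FOSB in Caco-2, which is listed at 0 in the deposited log2 values. Same-numbered replicates did not deviate together (correlations -0.0554 to 0.0676 in Caco-2 and -0.0369 to 0.0245 in HT-29), and with the replicate number as a block the members called were 6, 6, 4, 2, 4 and 5, as without it. FOSB in Caco-2 rests on 12 control counts, so its fold is the least certain.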
